A study of Homo sapiens with 8 samples.

Results

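RET, EGFR and IGF1R encode receptor tyrosine kinases, and together they held 15 of the 9962 single-base positions listed for N1-methyladenosine (m1A) in this series, 5 positions each. The members are the 3 genes by name, as the deposited annotation gives them, and every listed position of theirs is described. The series set human neuroblastoma cells transfected with a control against cells in which TRMT6 was silenced by siRNA (siTRMT6), each with 2 replicates. Fragments of poly(A) RNA were either sequenced as input or first enriched with an antibody against m1A. TRMT6 is the partner subunit of the TRMT61A methyltransferase, and its silencing is the only difference the labels give between the groups. The 4 libraries used here were control 1, control 2, siTRMT6 1 and siTRMT6 2, all taken as m1A immunoprecipitates. The labels name the cell line SK-N-BE in one field and SK-N-AS in others, and do not say whether replicates were separate cultures. If they were not, the p-values below reflect technical spread alone.

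Receptor tyrosine kinases span the plasma membrane, bind a growth factor outside the cell and phosphorylate tyrosines inside it, where adaptor proteins dock and pass the signal to the RAS-MAPK and PI3K-AKT pathways. RET responds to ligands of the GDNF family held by GFRα co-receptors and is needed for the development of sympathetic and enteric neurons, the lineage from which neuroblastoma arises. EGFR binds EGF, TGFα and related ligands. IGF1R binds IGF1 and IGF2, which promote growth and survival. m1A carries a methyl group on the base-pairing edge of adenine, so it blocks Watson-Crick pairing. It is abundant in tRNA and rare in mRNA.

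Reads at listed positions numbered 8655 in control 1, 46007 in control 2, 40771 in siTRMT6 1 and 13812 in siTRMT6 2. These totals cover listed positions only and are not sequencing depths. No listed position had a deposited p-value above 0.0478, so positions with similar reads in both conditions may be missing. The gene sums, shares and gene tests below cover listed positions only and are not all m1A reads of a gene. In all, 98.6% of positions had reads in 1 library, and a position that 1 library alone had needed at least 5 reads from the controls or 6 from the siTRMT6 libraries to appear. Among markers of noradrenergic neuroblastoma, 8 of 12 had a listed position, with 90, 273, 231 and 206 reads in control 1, control 2, siTRMT6 1 and siTRMT6 2. ISL1 and ELAVL4 were among those without one. Among mesenchymal markers 2 of 10 did (TWIST1 and VIM), with 25, 12, 21 and 11 reads in the same order, and 0 of 5 blood cell markers did. The part of these levels in the results below was not tested. The silencing was not checked here, as no input or expression values were used. TRMT6 itself had no listed position.

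Of the 15 positions, 11 had reads in a control library and were lower in siTRMT6, and 4 had reads in a siTRMT6 library and were higher. Over all 9962 positions, the authors' deposited table called 50.4% lower and 49.6% higher at an adjusted p below 0.05. All 15 were among those calls, with adjusted p-values from 8.3e-06 to 0.0376 in the authors' deposited table, which pools replicates. The largest unadjusted p-value in that table was 0.0478, so nearly every listed position is such a call. Being among the calls therefore does not set the 15 apart. Each position had reads in 1 library and 0 in the other 3. Control 2 held 9 of the 15 positions (60.0%, against 42.9% of all positions), control 1 held 2, siTRMT6 1 held 3 and siTRMT6 2 held 1. Of the siTRMT6 positions, 3 carried 6 reads, the smallest number listed alone in those libraries, and the other one carried 8. Because input values are not used here, a lower m1A signal and a lower level of the transcript cannot be told apart, and nor can, in bulk samples, fewer cells of a type and less RNA per cell.

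**Figure D1:**
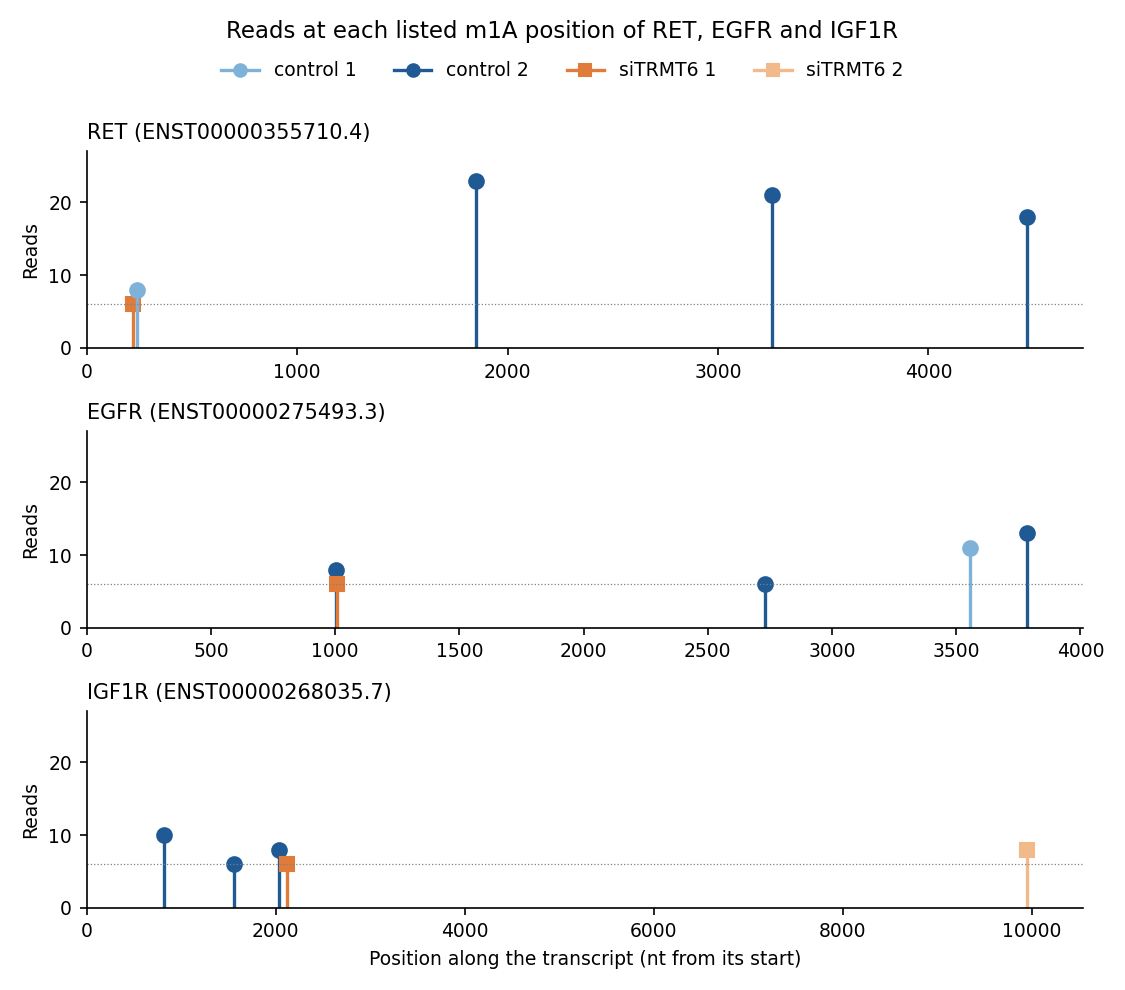
Reads (vertical axis) at each listed m1A position of RET, EGFR and IGF1R, placed by distance in nt from the start of the Ensembl transcript named in each panel. Circles are control and squares siTRMT6 libraries, the dotted line marks 6 reads, and each gene has a siTRMT6 1 position with 6 reads next to a control position with 8 reads.

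RET lay on the plus strand of chromosome 10 and had 4 lower positions and 1 higher. Its most 5′ positions flanked the start codon: siTRMT6 1 had 6 reads at 43077245 in the 5′ UTR, and control 1 had 8 reads at 43077265, 20 nt downstream in coding sequence. In transcript ENST00000355710.4, which encodes the long isoform RET51, these were bases 219 and 239. All 3 listed RET transcripts contain both. Pooled by condition and scaled by listed reads, the summed log2 of siTRMT6 over control at this spot was -0.41. As shares of their own libraries the counts were farther apart: 8 reads were 0.0924% of the listed reads of control 1 and 6 were 0.0147% of those of siTRMT6 1. Positions with reads had a median of 8 reads in control 1 and 9 in siTRMT6 1. The gap in shares thus reflects the listed totals more than the counts.

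Further along RET, only control 2 had reads. It had 23 reads at 43112194 in coding sequence (transcript base 1850), 21 at 43124968 near the 3′ end of the coding sequence (base 3257) and 18 at 43129158 in the 3′ UTR (base 4466). These counts stood above 95.3%, 93.2% and 88.2% of the positions with reads in control 2. The position at 43129158 was annotated to ENST00000355710.4 and ENST00000615310.1 and not to ENST00000340058.5, the transcript of the shorter isoform RET9, which has another 3′ end. It lay 1193 nt before the end of the RefSeq gene. For ENST00000615310.1, the position at 43124968 was listed as 3′ UTR.

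The authors' deposited table gave the positions at 43112194, 43124968 and 43129158 log2 fold changes of -5.71, -5.58 and -5.35. Set against a floor of 3 counts over the siTRMT6 libraries, the first was at least 7.66-fold lower, the next at least 6.99-fold and the last at least 5.99-fold. These are lower bounds only if a listed 0 means that no reads fell on that base, which is not known. No siTRMT6 library had a listed position close by: the nearest, along the transcript, lay 1631, 3038 and 4247 nt away. Of the 490 positions that only control 2 had with at least 18 reads, the smallest of these 3 RET counts, 45.3% had a siTRMT6 position within 200 nt on a shared transcript. The RET positions of control 2 were among the others.

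EGFR lay on the plus strand of chromosome 7 and had all 5 positions in coding sequence, 4 lower and 1 higher. Control 2 had 8 reads at 55154090 and siTRMT6 1 had 6 reads at 55154092, 2 nt away, at bases 1004 and 1006 of transcript ENST00000275493.3. Both positions were annotated to 7 EGFR transcripts. The summed log2 of this pair was -0.41, the value of the RET pair, since the counts were the same.

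The other EGFR positions, all with control reads, lay in the 3′ part of the coding sequence. Control 2 had 6 reads at 55191803 (base 2731, in 3 transcripts). Control 1 had 11 reads at 55205364 (base 3557) and control 2 had 13 at 55205590 (base 3783), both in the same 2 transcripts. The last pair was 226 nt apart on the genome and on the transcript, so no intron separates the bases. It was the only place in the 3 genes where both control libraries had positions within 500 nt of each other. The nearest listed siTRMT6 position lay 1725, 2551 and 2777 nt from these 3 positions along the transcript. For 55205590 and 55205364, the authors' deposited table gave log2 fold changes of -4.89 and -4.64, and their folds against the floor were at least 4.33 and 3.66.

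IGF1R lay on the plus strand of chromosome 15 and had 3 lower and 2 higher positions, each in both of its listed transcripts. Control 2 had 10 reads at 98707676 (base 820 of ENST00000268035.7), 6 at 98891630 (base 1557) and 8 at 98908866 (base 2040). siTRMT6 1 had 6 reads at 98911356 (base 2115). All 4 were in coding sequence. The last 2 lay 2490 nt apart on the genome but 75 nt apart on the spliced transcript, with 2415 nt of intron between them. Joined along the transcript they gave 8 control and 6 siTRMT6 reads, again a summed log2 of -0.41.

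siTRMT6 2 had its only position of the 3 genes in IGF1R, with 8 reads at 98962672 in the 3′ UTR (base 9945), 1858 nt before the end of the RefSeq gene. It lay 7830 nt along the transcript from the nearest other IGF1R position. The authors' deposited table gave it a log2 fold change of 3.82.

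Counted by transcript region, 12 of the 15 positions were in coding sequence, 2 in a 3′ UTR and 1 in a 5′ UTR, each in the transcript that lists all 5 positions of its gene. Over all positions, 65.2% were listed as coding sequence, 22.6% as 3′ UTR and 13.5% as 5′ UTR in at least 1 transcript. None of the 15 was also listed for another gene. None fell in the promoter window of its gene, but the limits of that window are not given here. The RET positions at 43077245 and 43077265 lay 176 and 196 nt downstream of the RefSeq start of the gene. Joining positions of a gene within 200 nt of the genome gave 13 regions, of which the RET pair at the start codon and the EGFR pair 2 nt apart held both conditions. Along the transcript the IGF1R pair across the intron joined too, giving 12 regions, 3 of them with both conditions. A position of the other condition lay within 200 nt on the transcript for 6 of the 15 positions (40.0%), against 34.9% of all positions.

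Summed over positions, RET had the widest gap between conditions, with 8 reads in control 1, 62 in control 2, 6 in siTRMT6 1 and 0 in siTRMT6 2. As shares of listed reads, these were 0.0924% (95% Wilson interval 0.0468 to 0.182), 0.135% (0.105 to 0.173), 0.0147% (0.00675 to 0.0321) and 0%, where a count of 0 allows up to 0.0217% if a listed 0 means no reads. As smaller counts may be left out of the table, a 0 could hide more than this, here and in the shares below. Both controls were above both siTRMT6 libraries, so the groups did not overlap, as for 9.64% of the 975 genes in the edgeR test. A given count is a larger share in control 1, which had the fewest listed reads (8655). Control 2 supplied 88.6% of the control reads. The intervals cover counting error only, since reads without molecular identifiers are not independent molecules.

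EGFR had 11, 27, 6 and 0 reads in control 1, control 2, siTRMT6 1 and siTRMT6 2. The shares were 0.127% (0.071 to 0.228), 0.0587% (0.0403 to 0.0854), 0.0147% (0.00675 to 0.0321) and 0%, again with up to 0.0217% allowed under that condition. Its groups did not overlap either, and here the highest share was in control 1 rather than control 2. Of the 975 genes in the edgeR test, 9.64% had both control shares above both siTRMT6 shares, and 25.8% had the reverse. RET and EGFR passed the filter on low counts of that test through both controls alone, which by itself fixed their non-overlap. The share of 9.64% therefore lends that non-overlap no weight.

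IGF1R had 0, 24, 6 and 8 reads in the same order. The shares were 0% (up to 0.0347% allowed, under the same condition), 0.0522% (0.0351 to 0.0776), 0.0147% (0.00675 to 0.0321) and 0.0579% (0.0294 to 0.114). Its groups overlapped, since control 1 was the lowest library and siTRMT6 2 the highest. IGF1R passed the same filter through control 2 and siTRMT6 2 alone, which likewise fixed the overlap. All of its control reads came from control 2.

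**Figure D2:**
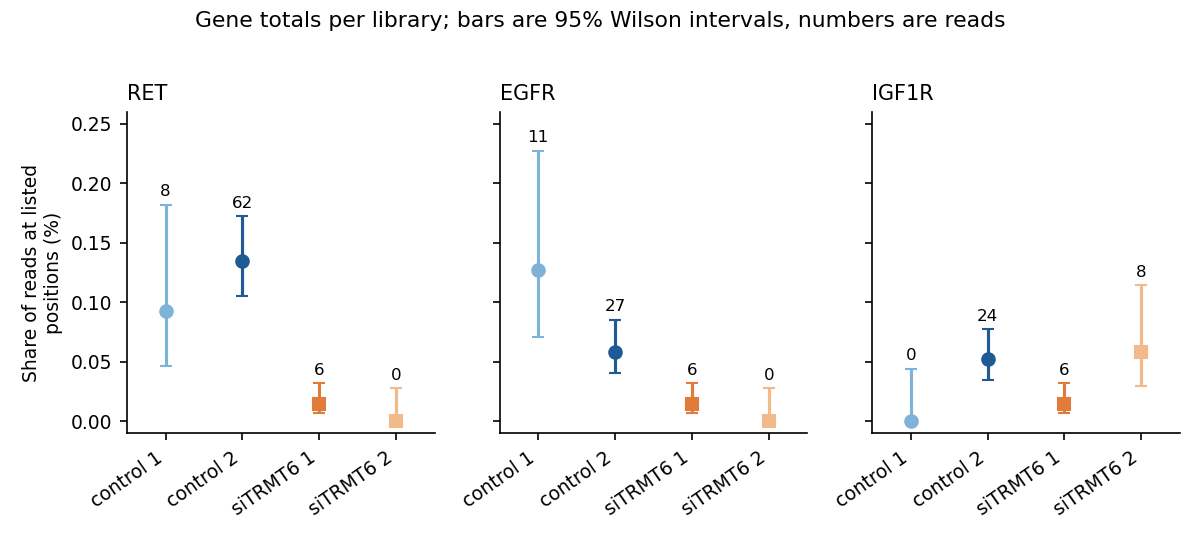
Reads of RET, EGFR and IGF1R as a percentage of the reads at listed positions, by library, with 95% Wilson intervals as bars and the number of reads above each. The controls lie above the siTRMT6 libraries for RET and EGFR, and the groups overlap for IGF1R.

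The pooled log2 of siTRMT6 over control, scaled by listed reads, was -3.54 for RET, -2.66 for EGFR and -0.78 for IGF1R. In linear terms the control reads were 11.7, 6.32 and 1.71 times the siTRMT6 reads. On the scale of the authors' deposited table every such log2 shifts by -0.19. Over the 1933 genes with listed reads in both conditions, the median was -0.065 and the quartiles were -0.70 and 0.49. Of these genes, 0 had a lower value than RET, 5 had a lower value than EGFR (RET, CC2D1A, PRR12, FBRS and SCRN1) and 432 (22.4%) a lower value than IGF1R. This order leaves out 1675 genes with control reads only, of which 2 (DOK4 and AKAP12) had at least the 70 control reads of RET and 24 at least the 38 of EGFR. It is a description of pooled reads, and the siTRMT6 side of RET and of EGFR is a single position at the smallest listed count. Positions that did not differ between conditions may be missing from these sums.

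**Figure D3:**
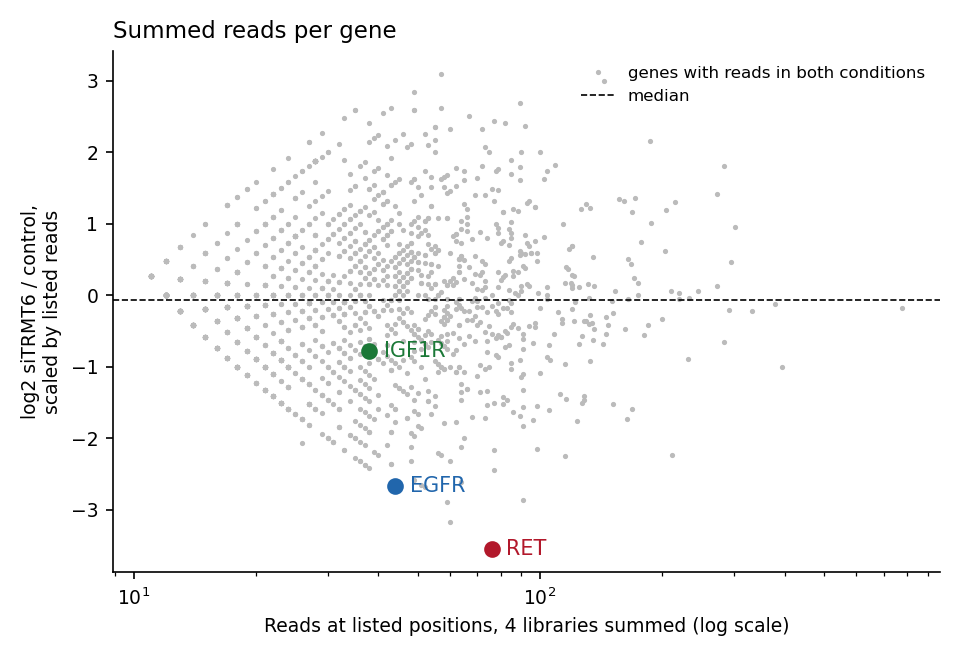
Log2 of siTRMT6 over control reads per gene (vertical axis, scaled by listed reads) against the reads of the 4 libraries summed (horizontal axis, log scale), for the 1933 genes with reads in both conditions. RET is the lowest point at -3.54, EGFR lies at -2.66 and IGF1R at -0.78, and the dashed line is the median of -0.065.

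Tested between the libraries as replicates, none of the 3 genes passed the threshold. edgeR's quasi-likelihood test gave RET a log2 change of -3.47 (SE 2.36, unadjusted p = 0.209, Benjamini-Hochberg adjusted p = 1.0). The log2 change was -2.75 (SE 2.25) for EGFR and -0.12 (SE 2.37) for IGF1R, with the same adjusted p. The direction of IGF1R turned when library sizes were taken from listed reads (0.37). Over all 975 genes tested, edgeR called 0 (0%), while 126 had an unadjusted p under 0.05. The corresponding numbers from DESeq2 were 1 (MT-ND6, a mitochondrial gene) and 45. The SEs exceed 2 log2 units, so changes of the size seen in RET were not detectable with these 4 libraries.

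The RET estimate depended on the siTRMT6 libraries: it was -7.82 without siTRMT6 1 and -2.49 without siTRMT6 2, and -4.09 without control 1. For EGFR the values were -7.03, -1.74 and -2.93, and -2.32 without control 2, where RET failed the filter on low counts. The lowest adjusted edgeR p among these was 0.462, for EGFR without siTRMT6 1. Without siTRMT6 1 the siTRMT6 side is a lone library with 0 reads, so these values are no measure of size. Pooled without control 2, the log2 was -3.07 for RET and -3.53 for EGFR, beside a median of -2.0 over the 526 genes that this leaves; 47 and 12 of them were lower.

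For single positions, edgeR's filter kept 34 of 9962, of which 22 (64.7%) were called. None of the 15 was among the 34, as the filter needs reads in more than 1 library. None of the 13 joined regions was among the 525 regions tested, of which edgeR called 0 (0%), with 131 at an unadjusted p under 0.05, and DESeq2 also called 0, with 10 unadjusted.

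Of 58 receptor tyrosine kinase genes, 14 had a listed position. In all, 4945 genes had one, but what share of all genes this makes was not computed. The numbers listed here, and for partners and adaptors below, are therefore not read as traits of these lists. RET had the most reads of the 14 receptor genes (76), then EGFR (44), DDR2, a collagen receptor (39), and IGF1R (38). Read numbers were not set against transcript length or input, so this order is not one of methylation. Of the 55 others, 11 had a position, with 13 lower and 8 higher positions (61.9% lower, against 50.4% of all positions). DDR2 had 17, 0, 8 and 14 reads in control 1, control 2, siTRMT6 1 and siTRMT6 2. ROR2, a Wnt5a receptor, had 0, 22, 11 and 0, and PTK7, a pseudokinase of Wnt signalling, had 6, 0, 17 and 7. LMTK2 had 0, 18, 8 and 0 reads, and TYRO3, a receptor for GAS6 and protein S, had 16 reads in control 2 alone. INSRR was the only listed relative of IGF1R, with 10 reads in control 2, and ERBB2, ERBB3 and ERBB4, the relatives of EGFR, had none. In the 4 of the 11 genes with both conditions the median log2 was -0.31, against -0.065 over all genes. DDR2 and PTK7 were tested in edgeR and neither was called.

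Some ligands and binding partners were listed. Of 11 RET partners, 2 were: GDNF, a ligand of RET through GFRA1, and GDF15, which acts on RET through GFRAL and had 11 reads in control 2. GDNF had 7 reads in each of 3 libraries within 8 bases of its coding sequence on the minus strand of chromosome 5: control 2 at 37815715, siTRMT6 1 at 37815717 and control 1 at 37815722. No GFRα co-receptor was listed, and 0 of 11 EGFR ligands and regulators were.

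Of 13 genes around IGF1R, 6 were listed, with 10 lower and 22 higher positions (31.25% lower, against 50.4% of all positions). Whether such a split differs from that over all positions was not tested, here or for the other lists. IGF2, a ligand of IGF1R, had 0, 103, 134 and 65 reads in control 1, control 2, siTRMT6 1 and siTRMT6 2. IGF2R, which clears IGF2 from the cell surface, had 0, 37, 46 and 9. STC2, an inhibitor of the protease that frees IGFs from their binding proteins, had 9, 13, 38 and 29. The binding protein gene IGFBP5 had 21, 8, 28 and 27, and IGFBP4 had 16 reads in each siTRMT6 library and 0 in the controls. Over the 4 genes with both conditions the median log2 was 0.94, against -0.065 over all genes with both. edgeR tested 5 of the 6 and called none. IGFBP4 was at least 10.7-fold higher against the floor of 3 counts, if a listed 0 means no reads (edgeR adjusted p = 0.386).

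Among 35 adaptors and effectors that dock on these receptors, 11 were listed, with 18 lower and 10 higher positions (64.3% lower, against 50.4% of all positions). DOK4, an adaptor that binds RET, had 39 reads in control 1 in coding sequence (57475110 of chromosome 16) and 40 in control 2 in its 3′ UTR (57472287), and 0 in both siTRMT6 libraries. That was the highest control sum of the 1675 genes with control reads only, and DOK4 was at least 26.3-fold lower in siTRMT6 against the floor, if a listed 0 means no reads (edgeR adjusted p = 0.386). SHC1, which links receptors to GRB2 and RAS, had 0, 53, 21 and 0 reads, and SH2B1 had 8, 41, 16 and 8. PTPN11, the phosphatase SHP2, had 0, 25, 18 and 7, and GAB2, a docking protein, had 20, 0, 24 and 0. IRS2, the docking protein of IGF1R and the insulin receptor, was listed in siTRMT6 only, with 17 and 11 reads. The median log2 of the 5 adaptors with both conditions was 0.0021, against -0.065 over all genes with both. edgeR tested 6 and called none.

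**Figure D4:**
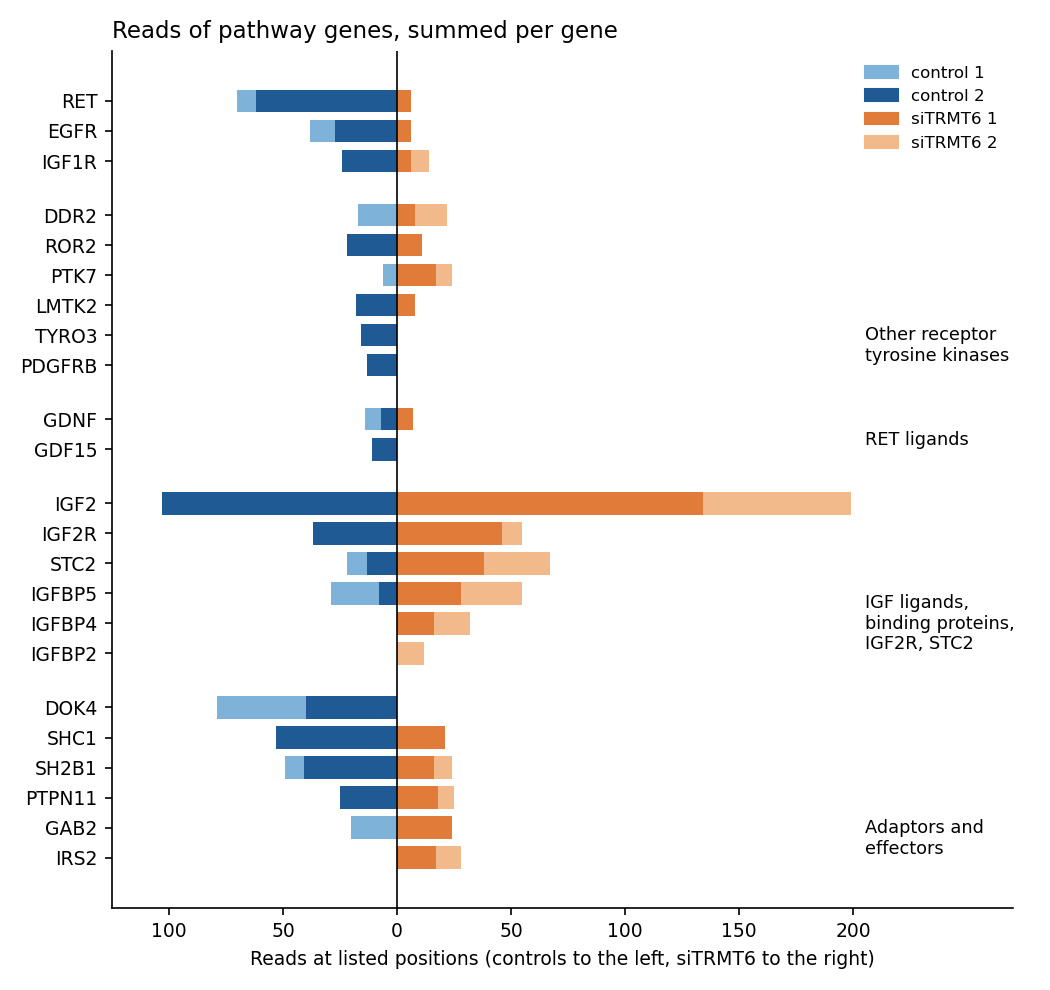
Reads at listed positions summed per gene (horizontal axis), with controls drawn to the left and siTRMT6 to the right of 0, for RET, EGFR and IGF1R and for the 6 genes with the most reads in each list of receptors, ligands or binding proteins and adaptors (fewer where fewer were listed). RET, EGFR, DOK4 and TYRO3 are among the genes that extend mostly or only to the left. IGF2, STC2, IGFBP4 and IRS2 are among those that extend mostly or only to the right.

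The genes closest to each receptor in how their reads were divided over the 4 libraries were found by Euclidean distance between the 4 shares, among genes with at least 3 positions and a total within a factor of 2 of the receptor's. For RET, out of 678 genes, these were SBF1, SCRN1, MCM2, IPO5 and CC2D1A (distances 0.124 to 0.136), and SBF1 had 12 and 48 control reads and no siTRMT6 reads. For EGFR, out of 1057, they were SLC18A1, WIPF2, RAD23B, RAB11FIP3 and DDIT4 (0.0412 to 0.0913). SLC18A1, a vesicular monoamine transporter of chromaffin cells, had 8, 22, 6 and 0 reads. For IGF1R, out of 1072, they were MED15, GNAI2, SEC61B, UPF1 and UHRF1 (0.0149 to 0.0694), and MED15 had 0, 26, 6 and 9 reads. The smallest distance was larger for RET than for EGFR and IGF1R. It was taken over fewer candidate genes, so the distances of the 3 receptors are not comparable.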

How the data were processed

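All values are from a single deposited table, in which 25539 lines name 9962 positions. Per the submitters' processing notes, FastQC 0.11.3, STAR and the build hg38 were used; how positions were called, counted and tested is not given in the sources used here. The authors deposited, per the file headers, 4 columns of read counts, the authors' log2 fold change and the authors' p-value and adjusted p-value. Counts were taken as m1A reads because the table lists m1A sites; the column names do not say so. The deposited log2 fold change is the ratio of summed counts, 0 replaced by 0.5, over a scale of 1.14, which matched all 9962 positions within 0.001. The largest deposited p-value is 0.0478. Positions are listed from 0 and given here from 1, on hg38; gene limits are from RefSeq (GRCh38.p14).

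Each position was counted once per gene, then summed per gene and per region joined within 200 nt. The tests were run across all positions, genes and regions with edgeR 4.0.16 in R 4.3.3: TMM, filterByExpr (minimum count 10), the quasi-likelihood test and Benjamini-Hochberg adjustment at 0.05. DESeq2 1.42.0 with poscounts size factors was an alternative. The steps were tested on simulated data. At the dispersion (spread between replicates) of these data, 2.6, the gene test recovered 0 of 34 tested genes that were changed 8-fold. At an assumed dispersion of 0.05 it recovered 76 of 77. The members and the gene lists were chosen with earlier results of these data known. Named genes are the members, the 5 listed genes with the most reads in each list of receptors, partners and adaptors (the marker genes, MT-ND6, INSRR, the ERBB genes, IRS2, AKAP12 and the genes with a lower log2 than EGFR were added after their values were seen) and the 5 genes nearest to each member. Marker lists cover noradrenergic, mesenchymal and blood cells. Of 35 adaptor symbols, 34 were found in RefSeq. Sequences around the positions are not printed, as no genome was used here.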

Additional observations from a re-analysis of the deposited data

How the results depend on the processing

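No position, gene or region total of RET, EGFR or IGF1R was called under any setting that could be run. RET and EGFR kept their direction under each setting in which they passed the filter; RET failed it with equal library sizes and without control 2, and IGF1R with equal library sizes and without control 2 or siTRMT6 1. IGF1R turned from -0.12 to 0.37 with library sizes from listed reads and to 1.70 with the replicate block; the cause was not tested. With the replicate number as a block, RET had a log2 of -3.92 and EGFR of -3.74 (adjusted p = 1), 0 genes and 0 regions were called, and the position calls fell from 22 to 0. The numbers are not known to pair the libraries: the deviations of same-numbered libraries had a correlation of -0.0896 over 975 genes. The 22 position calls, none in these genes, were 29 with equal library sizes, 14 with library sizes from listed reads, 0 with DESeq2, 0 with no filter on low counts, and 0 to 0 when 1 replicate was left out. Genes called rose from 0 to 1 with DESeq2. Joining within 500 or 1000 nt gave 12 regions in the 3 genes in place of 13. A ratio without a replacement for a sum of 0 exists for none of the 15 positions of these genes, so that alternative gave no value for them. The counts of 6 to 23 reads at each position of the 3 genes limit what can be seen.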
